A study of Mus musculus with 16 samples.

Results

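Axon guidance genes were examined in the RNAseq data of mouse cortices at P7. The genes are the semaphorins and their plexin receptors, the ephrins and their Eph receptors, the netrins with the Unc5 receptors, and the Slit ligands with the Robo receptors. They were chosen by symbol, and each had to have more than 0.03125 normalized reads in at least 12 of the 16 pups. Of 36930 entries in the table, 21183 passed this filter. The symbols matched 67 entries, of which 65 passed. The 65 genes comprise 20 semaphorins, 9 plexins, 5 ephrin-A and 3 ephrin-B ligands, 9 EphA and 5 EphB receptors, 3 netrins, 4 Unc5 receptors, 3 Slit ligands and 4 Robo receptors. The selection used no difference between samples. All 65 genes were above the threshold in all 16 pups. The lowest was Epha1, which ranged from 0.272 to 0.613 normalized reads, or 10 to 30 reads per pup. The entries that did not pass were Ntn5, which had a value in 3 pups (0.124 to 0.226), and Plxna4os1, which had no reads in any pup. Plxna4os1 is a gene of non-coding RNA inside the Plxna4 locus, on the opposite strand. Most genes in such a position had no reads in these data, so that its 0 does not show absence.

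The study asked how painful stimulation of newborn mice changes the cortex. RNA was sequenced from cortices of 8 Avil-ChR2 and 8 ChR2-flfl pups on a C57BL6 background. Both genotypes carried a floxed channelrhodopsin (ChR2) with a tdTomato reporter at the Rosa26 locus. Avil-ChR2 pups had in addition a Cre recombinase driven by advillin (Avil), a gene of sensory neurons, whereas ChR2-flfl littermates had no Cre and did not express the channel. Every pup, controls included, spent 1 h per day under blue light on P1 to P5 and was killed at P7. No pups without light were analysed here, and Cre itself was present in one genotype only, so that effects of Cre, of the channel and of its stimulation cannot be told apart. Pup numbers fall into a first run (26 to 33) and a second run (35 to 42), each holding 4 pups per genotype. The labels do not say whether a run was a litter or a batch.

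Normalized reads are CPM scaled by TMM factors, that is, reads of a gene relative to all reads of the pup. Between 30549126 and 48711134 reads per pup were assigned to genes, and 15 of the 16 pups had at least 47791532. The exception was ChR2-flfl replicate 3. Avil tested the genotype labels. It had 0.825 to 1.46 CPM (median 1.06) in ChR2-flfl and 37.3 to 46.4 CPM (median 38.6) in Avil-ChR2 pups, which is 5.23 higher on the log2 scale (standard error, SE, 0.09; adjusted p = 4.17e-19 in limma). Sex was checked with the Y-linked gene Ddx3y. It had 50.7 to 73.4 CPM in pups labelled male and 1.71 to 2.57 CPM in pups labelled female, apart from Avil-ChR2 replicate 4, which is labelled female and had 54.7 CPM. The supplement of the study lists this pup as male. Neurod6, a marker of cortical projection neurons, was present in every pup with 166 to 236 CPM. The tissue holds all cell types of the cortex, so that fewer cells of a type and less RNA per cell cannot be told apart.

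Growing axons are steered by cues that attract or repel their growth cones. Semaphorins bind plexins, with neuropilins as co-receptors of the secreted members, and in most settings repel. Ephrins are held in the membrane and signal through Eph receptor tyrosine kinases on contact, in both directions. Netrins attract through Dcc and repel through Unc5 receptors, and Slit proteins repel through Robo receptors. In the first postnatal week of the mouse cortex, these families also take part in the growth of callosal and thalamic axons, in dendrite growth and in the formation of synapses.

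The region just before the gene start is shown for 4 members on which the comparisons below turn, to show how CpG-rich these starts are. Slit2 and Epha4 had an adjusted p under 0.05 between the runs of pup numbers. Efna1 and Unc5c were the ephrin ligand and the netrin receptor with the smallest genotype p. Each stretch is 100 bases from the RefSeq promoter table (GRCm38.p6), 5′ to 3′ on the strand of the gene, and ends before both the RefSeq start and the start listed with the data. Capitals mark CpG pairs.
Slit2, chr5:47983008-47983107, plus strand: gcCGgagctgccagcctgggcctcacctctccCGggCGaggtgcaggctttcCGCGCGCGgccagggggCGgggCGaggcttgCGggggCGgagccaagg
Epha4, chr1:77515104-77515203, minus strand: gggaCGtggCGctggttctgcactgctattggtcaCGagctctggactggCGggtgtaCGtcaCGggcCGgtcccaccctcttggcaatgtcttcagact
Efna1, chr3:89280952-89281051, minus strand: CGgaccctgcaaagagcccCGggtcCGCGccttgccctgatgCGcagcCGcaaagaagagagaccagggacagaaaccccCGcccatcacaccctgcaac
Unc5c, chr3:141465464-141465563, plus strand: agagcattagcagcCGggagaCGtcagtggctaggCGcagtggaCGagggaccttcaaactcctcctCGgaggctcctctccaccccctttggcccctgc

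These stretches held 11 CpG pairs in Slit2, 7 in Epha4, 7 in Efna1 and 5 in Unc5c. The table had an entry for 56 of the 65 genes, and for 52 of them its start was within 1000 bases of the listed start. In the full window of 300 bases (250 before to 50 after the start), the median of these 52 genes was 23 CpG pairs, with quartiles of 14 and 30. Over 12719 genes that passed the filter and had such an entry, the median was 18 (quartiles 8 and 27), and over the 9859 of them whose average log2 CPM was 0 or more it was 21 (quartiles 13 and 29). At least 10 CpG pairs were found in 86.5% of the guidance windows, in 70.8% of all windows and in 82.6% of those of the better expressed genes. The letters TATAAA, searched on both strands, occurred in the windows of Slit2 and Efnb2, which is 3.85% of the guidance windows, beside 8.6% of all windows and 6.94% of those of the better expressed genes. A match is a description of the letters only.

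To compare levels between genes, CPM were divided by the length of the longest annotated transcript in kb. The levels of the 65 genes covered a 712-fold range, from 0.128 ± 0.0263 CPM per kb (SD, n = 16 pups) for Epha1 to 91.1 ± 9.28 for Sema7a. The median was 9.04 CPM per kb over the 34 ligands and 10.4 over the 31 receptors. After Sema7a came Epha4, Ephb6, Efnb3, Plxna1 and Robo2, with 47.6 to 57.0 CPM per kb, and no other gene was above 37.2. The length used matters here. With summed exons in place of the longest transcript, 17 of the 65 genes were lower by more than 1.5 times, among them Robo2 (24.1, below Plxnd1 with 35.2), Epha5 (14.6), Robo1 (8.85), Sema3a (3.61), Unc5c (3.51) and Sema4g (17.5, below Sema6b with 22.7 CPM per kb).

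**Figure D1:**
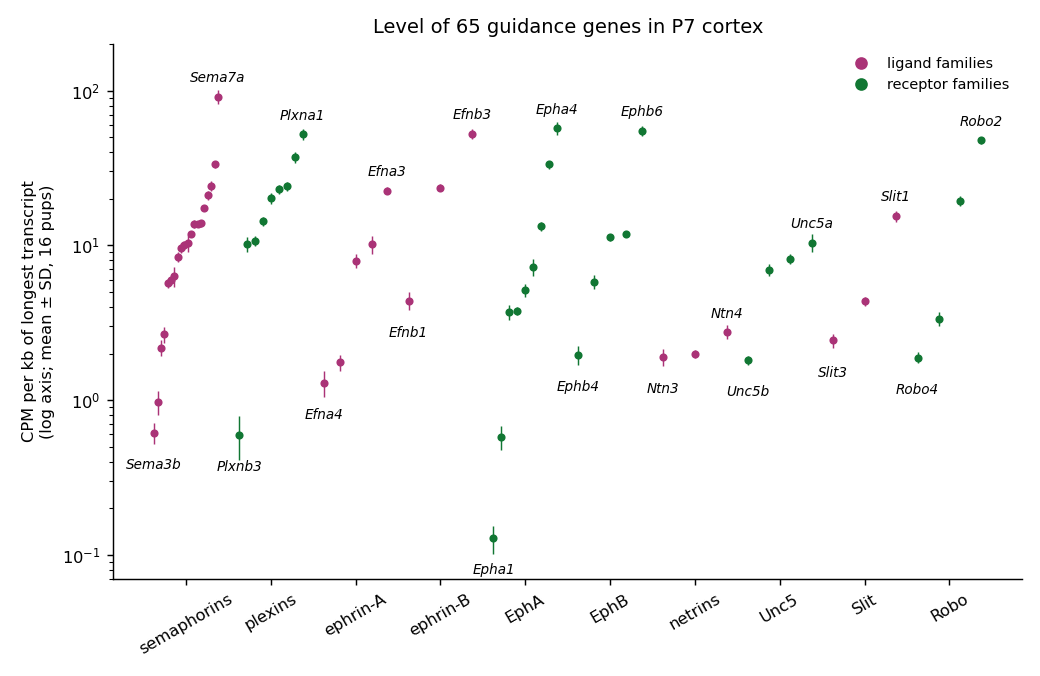
Level of each of the 65 guidance genes by family, in CPM per kb of the longest transcript on a log axis. Points are means and bars SD over 16 pups; the highest and the lowest gene of each family are named, and the levels run from 0.128 (Epha1) to 91.1 CPM per kb (Sema7a).

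Among the semaphorins, Sema7a, which is anchored in the membrane by a lipid tail, had the highest level, and its lowest pup (73.4 CPM per kb) lay above the highest pup of the next gene, the transmembrane Sema4g (38.9). Sema4g had 33.3 ± 1.88 and Sema6b 24.1 ± 1.82 CPM per kb (SD, n = 16). Of the other transmembrane members, Sema6c (21 ± 1.4), Sema4f (17.4 ± 0.85), Sema6a (13.9 ± 0.665), Sema4a (13.8 ± 0.837), Sema6d (13.8 ± 0.553), Sema4d (11.8 ± 0.54), Sema5b (10.3 ± 1.28) and Sema4c (9.64 ± 0.716 CPM per kb, SD, n = 16) were above the median of the ligands, and Sema4b (5.94 ± 0.399) and Sema5a (5.67 ± 0.389) were below it. Of the secreted semaphorins, Sema3c was highest with 10 ± 0.737 and Sema3a had 8.44 ± 0.581 CPM per kb (SD, n = 16). Sema3f followed with 6.31 ± 0.892, Sema3e with 2.66 ± 0.327 and Sema3d with 2.18 ± 0.256. Sema3g had 0.976 ± 0.169, and Sema3b was the lowest of the family with 0.617 ± 0.0979 CPM per kb (SD, n = 16). The order in the middle of the family is not resolved, since the pups of 12 of the 19 neighbouring pairs of semaphorins overlapped.

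Of the plexins, Plxna1 was highest with 52.1 ± 4.33 CPM per kb (SD, n = 16), followed by Plxnd1 with 37.2 ± 3.01. Plxna2 (24.0 ± 1.7), Plxna3 (23.1 ± 1.57) and Plxna4 (20.2 ± 1.68 CPM per kb, SD, n = 16) stood next to each other with overlapping pups. Plxnb2 had 14.3 ± 0.96 and Plxnb1 10.7 ± 0.734 CPM per kb, and Plxnc1, a receptor of Sema7a, had 10.2 ± 1.16. Plxnb3, a receptor of Sema5a, was far below its relatives with 0.599 ± 0.189 CPM per kb, and its coefficient of variation over the 16 pups was 31.5%, the largest among the guidance genes with a mean above 1 CPM. The next were Efna4 (19.2%), Epha2 (17.6%) and Sema3g (17.3%), and the median over the 65 genes was 8.06%. The co-receptors Nrp1 and Nrp2, measured outside the 65 genes, had 11.1 and 3.54 CPM per kb.

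Ephrin-B3 (Efnb3), known as a midline barrier of corticospinal axons, had the highest level of the ephrins with 52.5 ± 4.08 CPM per kb (SD, n = 16), Efnb2 had 23.6 ± 1.27 and Efnb1 4.39 ± 0.595. Of the ephrin-A ligands, Efna3 was highest with 22.6 ± 1.27, followed by Efna5 (10.2 ± 1.37) and Efna2 (7.95 ± 0.812). Efna1 (1.75 ± 0.214) and Efna4 (1.29 ± 0.247 CPM per kb, SD, n = 16) were the lowest and their pups overlapped. Efna1, Efna3 and Efna4 are neighbours on chromosome 3, with gaps of 32947 and 10432 bases and the same strand, and their levels differed up to 17.5-fold. On the receptor side, Epha4, which binds ephrins of both classes, had 57.0 ± 5.41 CPM per kb (SD, n = 16), Epha5 33.3 ± 1.99 and Epha7 13.3 ± 0.912. Epha8 (7.26 ± 0.898), Epha10 (5.14 ± 0.484), Epha3 (3.78 ± 0.213) and Epha6 (3.71 ± 0.402) were lower, and Epha2 had 0.58 ± 0.102 CPM per kb (SD, n = 16). The few reads of Epha1 are uncertain, since it shares 1727 bases with Zyx on the opposite strand, which had 45.6 CPM. Ephb6, an Eph receptor without kinase activity, had 55.2 ± 4.03 CPM per kb, which was above Ephb1 (11.9 ± 0.553) and Ephb2 (11.3 ± 0.606) in every pup. Ephb3 had 5.83 ± 0.578 and Ephb4, known from vessels, 1.96 ± 0.271 CPM per kb.

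The netrins were low in this tissue. Ntn4 had 2.75 ± 0.285, Ntn1 1.99 ± 0.127 and Ntn3 1.89 ± 0.241 CPM per kb (SD, n = 16). Ntn3 overlaps Tbc1d24, a gene on the same strand with 184 CPM, so that its reads are uncertain. The repulsive netrin receptors Unc5a (10.4 ± 1.38), Unc5d (8.2 ± 0.574) and Unc5c (6.96 ± 0.597 CPM per kb, SD, n = 16) formed a group with overlapping neighbours, and Unc5b had 1.81 ± 0.129. The attractive receptor Dcc had 4.2 CPM per kb and its relative Neo1 had 63.4. Slit1 was the highest of the Slit ligands with 15.5 ± 1.27 CPM per kb (SD, n = 16), followed by Slit2 (4.35 ± 0.317) and Slit3 (2.43 ± 0.249), and the pups of the 3 genes did not overlap. By summed exons, Slit2 (1.7) was below Slit3 (2.09 CPM per kb), so that the order of these 2 is not resolved. Robo2 had 47.6 ± 2.77 and Robo1 19.3 ± 1.42 CPM per kb. Robo3, which is known from axons that cross the midline, had 3.35 ± 0.341, and Robo4, a gene of endothelial cells, had 1.88 ± 0.151 CPM per kb (SD, n = 16). Robo1 and Robo2 are neighbours on chromosome 16 and were the longest loci of the set, with 1019939 and 1555238 bases.

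The main comparison asked whether guidance genes differed between Avil-ChR2 and ChR2-flfl cortices after the neonatal light exposure. In no guidance gene was the adjusted p under 0.05 (limma with Benjamini-Hochberg adjustment over 21183 genes, lowest adjusted p = 0.772), where 0.00944% of all genes tested did. At an unadjusted p under 0.05 there were 6 genes (9.23%), beside 5.41% of all genes tested, and limma's voom on the recovered reads gave 0 at an adjusted and 6 at an unadjusted p. Of these, 4 were lower in Avil-ChR2 cortices (6.15%, beside 3.46% of all genes tested), namely the plexins Plxna4 and Plxna2, the netrin receptor Unc5c and Epha6. The 2 that were higher (3.08%, beside 1.95%) were the ligand Efna1 and the receptor Robo3. The differences were small. The log2 differences ranged from -0.163 (Epha6) to 0.236 (Efna1), the 95% interval lay within ±0.25 for 54 genes, and within ±0.5 for all 65. The median over the 65 genes was 0.002, as it was over all genes tested, and the median absolute difference was 0.034, beside 0.051 over all genes and 0.036 over the 15137 genes whose average log2 CPM was 0 or more.

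**Figure D2:**
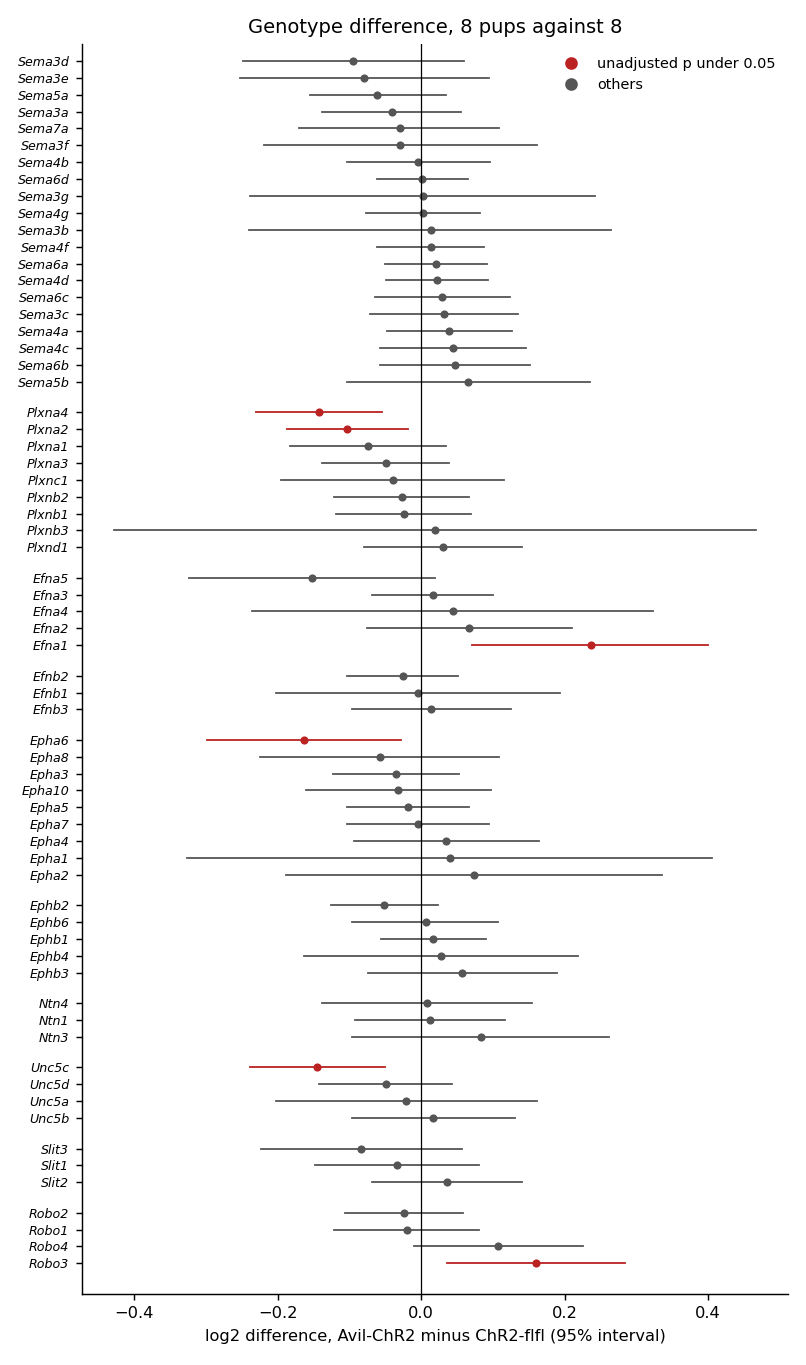
Log2 difference between Avil-ChR2 and ChR2-flfl cortices for each of the 65 guidance genes, by family, with limma's 95% interval (8 pups per genotype). The 6 genes with an unadjusted p under 0.05 are red; they lie between -0.163 (Epha6) and 0.236 (Efna1), and none has an adjusted p under 0.05.

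By family, 7 of the 9 plexins had a negative difference, with a median of -0.04, and 2 of them had an unadjusted p under 0.05. Summed over the family, plexin reads were 1715 ± 111 CPM in ChR2-flfl and 1638 ± 59.9 in Avil-ChR2 cortices (SD, n = 8 each). Of the 20 semaphorins, 13 were higher and 7 lower, with a median of 0.007, and none had an unadjusted p under 0.05. The EphA receptors had 6 of 9 negative differences (median -0.018) and the Unc5 receptors 3 of 4 (median -0.035). Of the ephrin-A ligands, 4 of 5 were higher (median 0.044), and of the EphB receptors 4 of 5 (median 0.017). Over the 34 ligands the median was 0.012, and over the 31 receptors it was -0.021. These medians are descriptions and were not tested. Most of these splits depended on the setting. With each pup's slope of log2 CPM on genomic span as a covariate, 15 of the 20 semaphorins were lower (median -0.029), as were 9 of 9 plexins, 4 of 5 ephrin-A ligands, 3 of 5 EphB receptors, 4 of 9 EphA receptors and 4 of 4 Unc5 receptors, and the median was -0.025 over the ligands and -0.042 over the receptors. In the first run alone, 6 semaphorins and 4 plexins were lower, and in the second run alone 11 semaphorins and 8 plexins. The EphA receptors had 6 of 9 lower in the first run and 3 of 9 in the second, the ephrin-A ligands 1 and 3 of 5, and the Unc5 receptors 2 and 4 of 4. No direction is therefore given for these families.

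Plxna4, a co-receptor with neuropilins for secreted semaphorins, had the smallest p. It spans 443650 bases of chromosome 6 and had 243.6 to 321 CPM (median 272.2) in ChR2-flfl and 231.4 to 264 CPM (median 247.5) in Avil-ChR2 cortices. Each of the 8 Avil-ChR2 pups lay under the mean of the controls, but the groups overlapped. The log2 difference was -0.14 (SE 0.042, limma unadjusted p = 0.00305 and adjusted p = 0.772, two-sided exact permutation test unadjusted p = 0.00404). Within the first run it came to -0.14 and within the second to -0.15.

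Plxna2, a related plexin on chromosome 1 with a locus of 197041 bases, had 252.1 to 319.1 CPM (median 269.2) in ChR2-flfl and 231 to 271.3 CPM (median 255.3) in Avil-ChR2 cortices. Again each of the 8 Avil-ChR2 pups lay under the mean of the controls and the groups overlapped. On the log2 scale it differed by -0.10 (SE 0.04; limma, unadjusted p = 0.019, adjusted p = 0.841). The value within the first run was -0.07 and within the second -0.13. The remaining A-type plexins were not separated. Plxna1 had 483.4 ± 44.2 CPM in ChR2-flfl and 458.3 ± 31 CPM in Avil-ChR2 cortices (SD, n = 8 each), and Plxna3 had 163.4 ± 14.4 and 157.5 ± 5.13 CPM.

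Unc5c, on chromosome 3 (141465564 to 141834924), had 60.13 to 78.87 CPM (median 69.98) in ChR2-flfl and 61.57 to 66.64 CPM (median 63.24) in Avil-ChR2 cortices. The 8 Avil-ChR2 pups lay in the lower part of the wider control range, under its mean. This was a log2 difference of -0.15 (SE 0.045; limma, unadjusted p = 0.00434, adjusted p = 0.813), and it was -0.08 in the first run and -0.21 in the second run. Its relatives had smaller differences, with -0.05 for Unc5d, -0.02 for Unc5a and 0.02 for Unc5b. The partner receptor Dcc, which is not one of the 65 genes, had 45.9 ± 3.92 CPM in ChR2-flfl and 40.9 ± 2.35 CPM in Avil-ChR2 cortices (SD, n = 8 each), a log2 difference of -0.16 (limma unadjusted p = 0.00264, adjusted p = 0.772).

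Epha6, an ephrin-A receptor with a locus of 953424 bases on chromosome 16, had 13.32 to 17.23 CPM (median 15.36) in ChR2-flfl and 11.76 to 15.37 CPM (median 13.69) in Avil-ChR2 cortices. Here too, the 8 Avil-ChR2 pups lay under the mean of the controls, with overlap of the groups. Its log2 difference was -0.16 (SE 0.064; limma, unadjusted p = 0.0201, adjusted p = 0.846), and it was negative in both runs. The value within the first run was -0.20 and within the second -0.13. Epha6 shares 19933 bases with 4930547E14Rik on the opposite strand, which had 32.8 CPM and a log2 difference of -0.155 (limma unadjusted p = 0.0215), and the share of reads that belongs to each of them is uncertain.

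Efna1, which codes for ephrin-A1, is a low gene on chromosome 3 (89271730 to 89280951), with 84 to 173 reads per pup. It had 2.269 to 2.986 CPM (median 2.646) in ChR2-flfl and 2.823 to 3.544 CPM (median 3.046) in Avil-ChR2 cortices. Each of the 8 Avil-ChR2 pups lay over the mean of the controls, with some overlap. The log2 difference was 0.24 (SE 0.079, limma unadjusted p = 0.00733 and adjusted p = 0.825, two-sided exact permutation test unadjusted p = 0.00326). Within the first run it came to 0.06 and within the second to 0.42. Efna5, the ligand with the most negative difference, had 43.35 ± 4.64 CPM in ChR2-flfl and 39.22 ± 5.83 CPM in Avil-ChR2 cortices (SD, n = 8 each), a log2 difference of -0.15 (limma unadjusted p = 0.0784, adjusted p = 0.927). This difference was -0.03 in the first run and -0.28 in the second run.

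Robo3 had 14.31 to 18.28 CPM (median 15.1) in ChR2-flfl and 15.67 to 19.48 CPM (median 17.98) in Avil-ChR2 cortices, and 7 of the 8 Avil-ChR2 pups lay over the mean of the controls. Its log2 difference was 0.16 (SE 0.059; limma, unadjusted p = 0.0139, adjusted p = 0.831). The value within the first run was 0.15 and within the second 0.17. Robo3 and Robo4 lie tail to tail on chromosome 9 with 2021 bases between them. Robo4 had 8.951 ± 0.732 CPM in ChR2-flfl and 9.631 ± 0.635 CPM in Avil-ChR2 cortices (SD, n = 8 each), a log2 difference of 0.11 (limma unadjusted p = 0.0713, adjusted p = 0.927). Robo1 and Robo2, which had more reads, had log2 differences of -0.02 each.

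**Figure D3:**
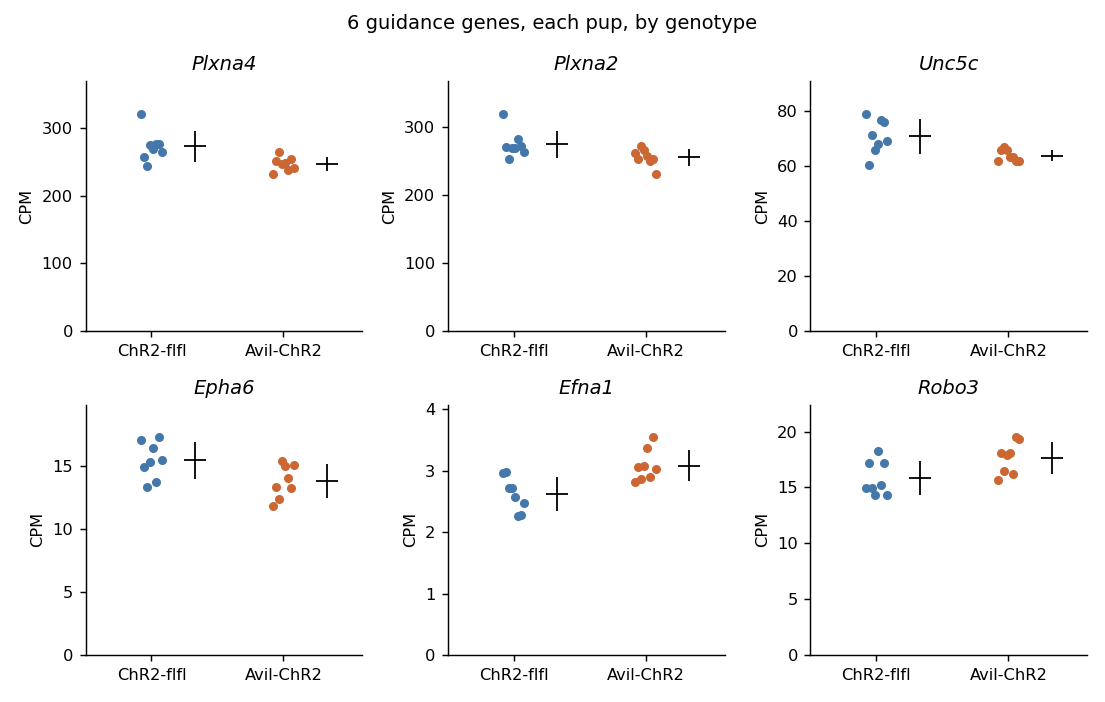
CPM of the 6 guidance genes with an unadjusted genotype p under 0.05, 1 point per pup (8 per genotype), with mean ± SD at the right of each group. The axes start at 0; for Plxna4, Plxna2, Unc5c and Epha6 the Avil-ChR2 pups lie below the ChR2-flfl mean, and in all 6 genes the genotypes overlap.

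After the 6 genes and Robo4 and Efna5, the next in order of p was Ephb2, with 125.8 ± 7.46 CPM in ChR2-flfl and 121.3 ± 5.12 CPM in Avil-ChR2 cortices (SD, n = 8 each). It was followed by Plxna1, Sema5a, with 62.65 ± 5.17 and 59.93 ± 2.63 CPM, and Sema3d, with 14.24 ± 1.84 and 13.29 ± 1.29 CPM. The log2 differences were -0.05 for Ephb2, -0.07 for Plxna1, -0.06 for Sema5a and -0.10 for Sema3d, and the unadjusted p from limma was at least 0.163 in these 4 genes. In the first and second run they were -0.021 and -0.082 for Ephb2, and -0.016 and -0.132 for Plxna1. Sema5a had -0.095 and -0.026, and Sema3d -0.029 and -0.161, in the same order. With 1 pup left out, Ephb2 lay between -0.069 and -0.03, and Plxna1 between -0.102 and -0.05. Sema5a then lay between -0.095 and -0.042, and Sema3d between -0.137 and -0.049. For the 6 guidance genes with the highest level per kb of the longest transcript, the log2 differences were -0.07 for Plxna1 (95% interval -0.18 to 0.03), -0.02 for Robo2 (-0.11 to 0.06), -0.03 for Sema7a (-0.17 to 0.11), 0.04 for Epha4 (-0.09 to 0.16), 0.01 for Ephb6 (-0.10 to 0.11) and 0.01 for Efnb3 (-0.10 to 0.13).

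The genotype differences were also set against the genomic span of each gene, from its first to its last base. The 65 genes span 4636 to 1555238 bases, with a median of 43539, beside 25452 for the genes whose average log2 CPM was 0 or more. Of the 29 guidance genes of at least 100000 bases, Avil-ChR2 cortices had less of 19 and more of 10, with a median of -0.034. The share of lower genes, 65.5%, stood beside 65.6% of 2403 better expressed genes of that span (median -0.021). Of the 36 shorter ones they had less of 12 and more of 24 (33.3% lower, beside 43.6% of 12734 better expressed genes), with a median of 0.015. The split of the shorter genes turned in other settings, with 29 of the 36 lower with the span slope as a covariate (median -0.035, beside 48.4% lower of the better expressed short genes) and 22 lower in the second run alone (median -0.024, beside 47.4%). In the first run alone 6 were lower (median 0.056, beside 43.9%). Of the 29 long genes, 18, 17 and 20 were lower in these 3 settings (beside 57.7%, 60.8% and 66.2% of the better expressed long genes). Across the 65 genes, Pearson's r between the log10 span and the log2 difference was -0.565 and Spearman's rho was -0.588, and across 15137 better expressed genes r was -0.168. These are correlations across genes of the same libraries, which are not independent replicates, and they carry no p. The slope of log2 CPM on span, per 10-fold longer locus and calculated for each pup over all genes, was 1.827 to 1.92 (median 1.879) in ChR2-flfl and 1.829 to 1.896 (median 1.844) in Avil-ChR2 cortices (two-sided exact permutation test, p = 0.113). This slope comes from the same values, guidance genes included. As a covariate it takes out variation with span by design, so that a smaller r is no separate result. With this slope as a covariate, r was -0.077 across the 65 genes. The log2 differences were then -0.12 for Plxna4, -0.11 for Unc5c, -0.09 for Plxna2, -0.11 for Epha6, 0.21 for Efna1 and 0.13 for Robo3. Within the runs of pup numbers, r was -0.538 in the first run and -0.288 in the second run. The difference of the second run from the first, described below, also varied with span. There r was 0.346 and rho 0.358 across the 65 genes, and r was 0.114 across the better expressed genes.

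**Figure D4:**
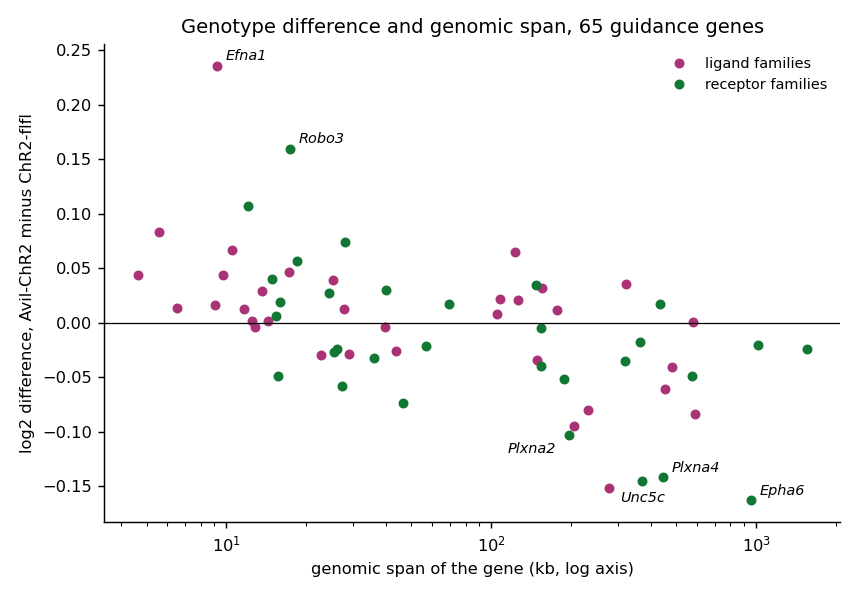
Log2 difference between Avil-ChR2 and ChR2-flfl cortices against the genomic span of each of the 65 guidance genes in kb on a log axis. Genes with an unadjusted p under 0.05 are named; the lower ones (Plxna4, Unc5c, Plxna2, Epha6) have long loci, the higher ones (Efna1, Robo3) short loci, and r is -0.565.

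Genes that work with these ligands and receptors were examined in 6 lists of 84 genes, of which 81 passed the filter. Lrrc4, Flrt1 and Flrt3 had no value in any pup and were not tested. This does not show that they were silent, since 93.2% of genes inside a gene of the opposite strand had no reads. Between genotypes, 0 of the 81 passed at an adjusted p under 0.05, and 9 had an unadjusted p under 0.05 in limma (11.1%, beside 5.41% of all genes tested; 10 by voom). Of these, 8 were lower in Avil-ChR2 cortices (9.88%, beside 3.46% of all genes tested) and 1 was higher (1.23%, beside 1.95%). Among the co-receptors and other guidance receptors, 2 of 15 were lower at this unadjusted threshold, which were Dcc and Lrp1, an endocytic receptor. Lrp1 had 529 ± 94.3 CPM in ChR2-flfl and 442 ± 44.7 CPM in Avil-ChR2 cortices (SD, n = 8 each), a log2 difference of -0.25 (limma unadjusted p = 0.0117, adjusted p = 0.825). Nrp1 had 41.4 ± 2.99 and 39.9 ± 1.86 CPM, Nrp2 23.5 ± 2.73 and 24.2 ± 8.25 CPM, and Neo1 476 ± 27.5 and 459 ± 18.2 CPM, in the same order of genotypes. The medians of Nrp2 ran the other way, with 23.9 CPM in ChR2-flfl and 20.7 CPM in Avil-ChR2 cortices. Its Avil-ChR2 pups ranged from 16.8 to 41.0 CPM, and its log2 difference was -0.01.

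In the list of plexin and semaphorin signalling, 3 of 18 genes had an unadjusted p under 0.05. Farp2, an exchange factor bound to A-type plexins, had a log2 difference of -0.15 (limma unadjusted p = 0.00308, adjusted p = 0.772), while Arhgef12 had -0.06 (unadjusted p = 0.0323) and the small GTPase Rras 0.20 (unadjusted p = 0.0383). In Eph receptor signalling it was 1 of 14, the exchange factor Kalrn, with a log2 difference of -0.08 (limma unadjusted p = 0.0339). In Slit-Robo and netrin signalling it was 2 of 15, which were the Robo-binding GTPase activator Srgap1 with -0.14 (limma unadjusted p = 0.0195) and the actin regulator Enah with -0.08 (unadjusted p = 0.0131). Of 10 cytoskeletal effectors it was 1, the cofilin phosphatase Ssh1, with -0.09 (limma unadjusted p = 0.0131). Of the 9 tested ligands and membrane anchors it was none at this threshold. Of the 9 genes, Rras and Ssh1 have the shortest loci, with 3641 and 56662 bases. Cell type markers were also compared. Of 64 markers tested, 1 had an unadjusted p under 0.05 between genotypes (1.56%, beside 5.41%), Ttr of the choroid plexus, with 0.118 ± 0.132 CPM in ChR2-flfl and 0.319 ± 0.374 CPM in Avil-ChR2 cortices (SD, n = 8 each, limma unadjusted p = 0.0491). The choroid plexus list of 4 genes, led by Clic6, summed to 0.374 to 2.0 CPM per pup, with Kcnj13 at 0. That 0 does not show absence either, given the many genes inside other genes that had no reads.

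The second run was compared with the first, with genotype as a covariate, to see how far the guidance genes varied apart from genotype. Of the 65 genes, 2 had an adjusted p under 0.05 (3.08%, beside 0.123% of all genes tested), Slit2 and Epha4, and both were higher in the second run. At an unadjusted p under 0.05 there were 11 genes (16.9%, beside 12.5%). Of these, 7 were lower in the second run (10.8%, beside 6.74%), namely Plxnb3, Efnb1, Efna2, Unc5a, Sema5b, Epha8 and Efnb3, and 4 were higher (6.15%, beside 5.76%), namely Slit2, Epha4, Robo2 and Sema3c. The run cannot be told apart from what else differed between these pups. The number of table entries with a value was 23914 to 24262 in 7 pups of the first run and 23379 to 23583 in the 8 pups of the second, without ChR2-flfl replicate 3, which had fewer reads (23246 entries). Its part in the differences of the guidance genes was not tested. By the labels, the pups of the first run had 3 females and 1 male of each genotype. The pups of the second run had 2 females and 2 males of Avil-ChR2 and 1 female and 3 males of ChR2-flfl. The females of the first run include Avil-ChR2 replicate 4, which Ddx3y puts with the males.

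Slit2, a repellent for Robo-bearing axons and dendrite branching cue on chromosome 5 (47983108 to 48306282), had 37.82 to 44.16 CPM (median 40.88) in the first run and 44.25 to 47.33 CPM (median 45.86) in the second run. The runs did not overlap. The pups of the second run were higher by a log2 of 0.18 (SE 0.031; limma, adjusted p = 0.0286; two-sided exact permutation test, p = 0.000155, the smallest that 8 against 8 allow). It was 0.18 in both genotypes. Epha4, on chromosome 1 (77367182 to 77515103), had 307.9 to 361.3 CPM (median 337) in the first run and 358.2 to 418.7 CPM (median 391.4) in the second run, and 6 of the 8 later pups were above the highest earlier pup. They were higher by a log2 of 0.21 (SE 0.04; limma, adjusted p = 0.0449), with 0.22 within ChR2-flfl and 0.21 within Avil-ChR2. Both calls were lost with the sex of the labels as a covariate (limma adjusted p = 0.0691 for Slit2 and 0.0741 for Epha4). They were also lost with the span slope, which comes from the same values, as a covariate (0.095 and 0.127). The log2 differences stayed between 0.17 and 0.22 with either covariate. The sexes of the supplement, which differ for 1 pup, were not used as a covariate here. With 1 pup left out at a time, Slit2 kept an adjusted p under 0.05 in 7 of 16 fits and Epha4 in 4 of 16. The call of Slit2 was lost without Avil-ChR2 replicate 1, 3, 5 or 8 and without ChR2-flfl replicate 2, 3, 5, 7 or 8 (limma adjusted p = 0.055 to 0.0755). That of Epha4 was lost without Avil-ChR2 replicate 1, 3, 4, 5, 6 or 8 and without ChR2-flfl replicate 1, 2, 3, 5, 7 or 8 (limma adjusted p = 0.0622 to 0.113).

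Plxnb3 had 3.479 to 5.626 CPM (median 4.825) in the first run and 1.791 to 3.837 CPM (median 2.728) in the second run, and 6 of the 8 later pups were below the lowest earlier pup. Its log2 difference of -0.70 (SE 0.149) was the largest of the 65 genes in size, with an adjusted p of 0.0623 in limma. With 1 pup left out it was under 0.05 in 4 of 16 fits, without Avil-ChR2 replicate 2 or 7 and without ChR2-flfl replicate 4 or 6 (limma adjusted p = 0.0349 to 0.0481), and up to 0.141 in the others. Efnb1, an X-linked ephrin that acts in callosal development, had 14.65 to 16.57 CPM (median 15.77) in the first run and 10.86 to 15.91 CPM (median 12.96) in the second run, a log2 difference of -0.28 (SE 0.072; limma, adjusted p = 0.111). Both had the same direction in the 2 genotypes, with -0.55 in ChR2-flfl and -0.84 in Avil-ChR2 for Plxnb3, and -0.25 and -0.31 for Efnb1.

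The other guidance genes with an unadjusted p under 0.05 between the runs had an adjusted p of at least 0.123 in limma, and in each of them the runs overlapped. Efna2 had 18.11 ± 1.3 CPM in the first and 15.79 ± 1.3 CPM in the second run (SD, n = 8 each), and Efnb3 had 173.1 ± 11.8 and 160.9 ± 11.8 CPM. In the same order of runs, Unc5a had 44.55 ± 4.51 and 38.4 ± 4.81 CPM, Sema5b 51.14 ± 5.39 and 45.02 ± 5.04 CPM, and Epha8 36.36 ± 4.19 and 32.05 ± 3.2 CPM. The log2 differences of these 5 genes lay between -0.22 (Unc5a) and -0.11 (Efnb3). Among those with higher values in the second run, Robo2 had 394.5 ± 12.5 and 422.8 ± 24.5 CPM, and Sema3c had 52.69 ± 2.67 and 57.35 ± 3.95 CPM.

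**Figure D5:**
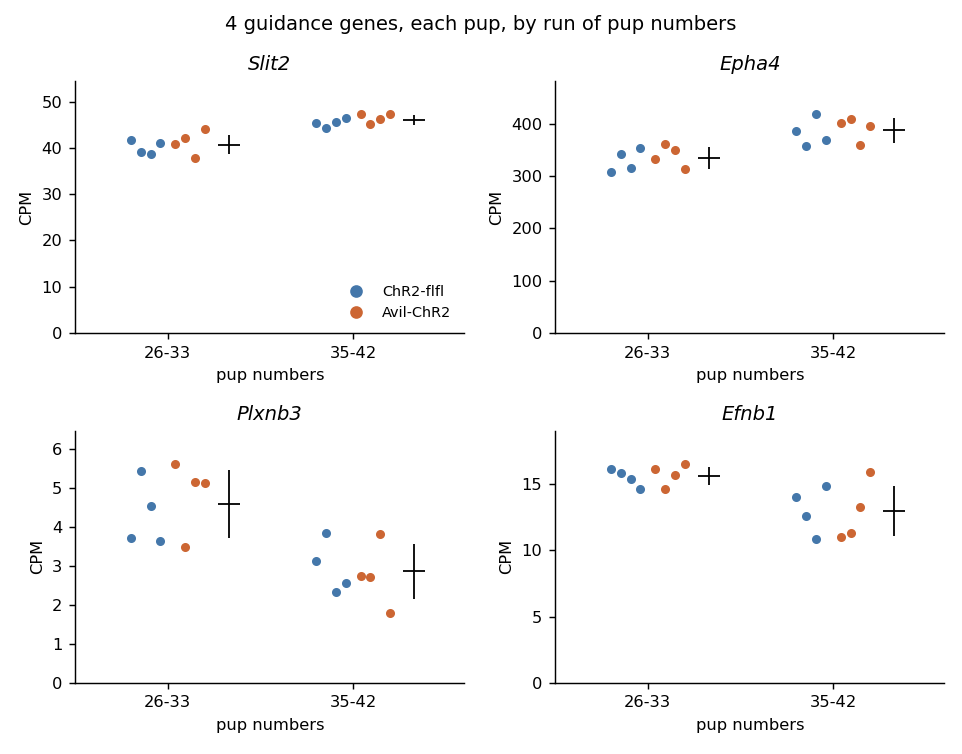
CPM of Slit2, Epha4, Plxnb3 and Efnb1 in each pup by run of pup numbers (8 pups per run, coloured by genotype), with mean ± SD at the right of each run. The axes start at 0; Slit2 does not overlap between the runs (up to 44.16 against at least 44.25 CPM), and the other 3 genes do.

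Cell type markers were set beside these values. Of 64 markers tested, 21 were lower (32.8%, beside 6.74% of all genes tested) and 1 was higher (1.56%, beside 5.76%) in the second run at an unadjusted p under 0.05 in limma, and none had an adjusted p under 0.05. The oligodendrocyte lineage had 5 of 8 markers lower, among them Mag (log2 difference -0.90), and its sum, led by Pdgfra, was 322 to 408 CPM (median 362) in the first run and 301 to 342 CPM (median 326) in the second run. The striatal list had 4 of 6 lower, among them Ppp1r1b (-0.51), and its sum, led by Rgs9, was 118 to 144 CPM (median 129) and 97.3 to 126 CPM (median 111). All 4 haemoglobin genes were lower, with a sum, led by Hbb-bs, of 257 to 465 CPM (median 316) and 227 to 294 CPM (median 255). Of 6 interneuron markers 3 were lower, with a sum, led by Gad1, of 303 to 360 CPM (median 323) and 279 to 319 CPM (median 305). Prox1, a marker of hippocampal granule cells, was the one that was higher (0.24). None of the markers in these lists was at 0. Their part in the differences of the guidance genes was not tested.

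Between the sexes of the labels, none of the 65 genes had an adjusted p under 0.05 in limma (beside 0.0425% of all genes tested), and none had an unadjusted p under 0.05 (beside 4.46%; also 0 by voom, and 2 with the run as a covariate). With the sexes of the supplement, which differ for the 1 pup that Ddx3y puts with the males, the count was also 0. The genotype difference itself was then compared between the sexes by an interaction term. At an adjusted p under 0.05 it found 0 of the 65 genes (0% of all genes tested), and 8 had an unadjusted p under 0.05 (12.3%, beside 4.31% of all genes tested), or 10 with the sexes of the supplement (beside 6.23%). With voom it was 6. The labels count Avil-ChR2 replicate 4 as female although its Ddx3y was that of a male. The differences per sex by the labels therefore include this pup among the females. With the sexes of the labels, the smallest p was that of Epha6, with a genotype log2 difference of -0.01 in females and -0.35 in males (interaction 0.34, SE 0.11; limma, unadjusted p = 0.0068, adjusted p = 0.993), or an interaction of 0.25 (unadjusted p = 0.0465) with the sexes of the supplement. Plxna1 had 0.04 in females and -0.21 in males (limma unadjusted p = 0.0149), and Plxna3 0.04 and -0.15 (unadjusted p = 0.0198). The order changed with the sexes of the supplement, where Plxna1 came first (interaction 0.27; limma unadjusted p = 0.00609, adjusted p = 0.794), followed by Sema6c (unadjusted p = 0.0149), Plxnb3 (0.0157) and Plxna3 (0.0194), and Epha6 was in place 10. These rest on 3 to 5 pups per sex and genotype by the labels, and on 4 by the supplement. For the interaction of genotype with the run of pup numbers, none had an adjusted p under 0.05 (0% of all genes tested), and 3 genes had an unadjusted p under 0.05 (4.62%, beside 3.04%; 2 by voom).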

How the data were processed

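The authors prepared stranded mRNA libraries (TruSeq), used SeqMan NGen to align them to mm10 (GRCm38), keeping reads from 50 bp, obtained counts per gene in ArrayStar and scaled these with TMM factors of edgeR. The deposited values are thus CPM per pup, written with decimal commas, and empty where a pup had no reads. They were whole multiples of 1 read in each pup (100% within 0.05 reads), so that reads could be recovered. How reads of overlapping genes were counted is not given in the sources used here. Of 3022 genes inside a gene of the opposite strand, 93.2% had no reads in any pup, beside 5.64% of 28759 genes not inside another gene (loci over 1000 bases). No guidance gene lay inside another gene.

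Values were log2 transformed, and missing values or values below -5 were set to -5 (4432 of 338928). Genotypes were compared with limma 3.58.1 in R 4.3.3 (lmFit, eBayes with trend) over 21183 genes with Benjamini-Hochberg adjustment. Single genes were also tested by exact permutation over pups. Its p is not adjusted for the number of genes, and the genes had been chosen by p in the same pups. For genotype, the two-sided exact permutation test gave an unadjusted p of 0.011 for Unc5c, 0.0179 for Plxna2, 0.0267 for Robo3 and 0.0365 for Epha6. The pups are separate animals. In simulated data for the genotype comparison of 21183 genes, the fit recovered 44% of 200 genes changed by a log2 of 0.25 and 66% at 0.5. The changed genes were drawn at random from all genes tested, so that these shares do not give the recovery for the guidance genes. The edgeR test on counts was planned and not run, and limma's voom on recovered reads, added after seeing the data, took its place. Counts by voom stand without a share over all genes, and the shares printed are from fits without voom. Transcript lengths came from GENCODE M21 (GRCm38).

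The genes, lists and tests were chosen with earlier results of these data known. Any guidance gene could be named with its level. Genes were described further if they had the 12 smallest genotype p, an adjusted p under 0.05 in any comparison, the highest or lowest level of a family or one of the 4 largest coefficients of variation, or were listed co-receptors or partner genes with an unadjusted p under 0.05. Relatives of these genes, and genes with an unadjusted p under 0.05 between runs or for the interaction with sex, were added after their values were seen. Alternatives covered the pseudocount, filters, imputation, scaling, covariates, each run of pup numbers alone and each pup left out.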

Additional observations from a re-analysis of the deposited data

Results flagged for a closer look

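Among 34 named genes and 2 measures per pup, a single pup stood apart from the other 7 of its genotype in 5 of 72 groups examined, where chance gives about 1 in 20. The reads of ChR2-flfl replicate 3 were 30549126, beside 48162598 to 48707429 in the other controls. Reads of Avil-ChR2 replicate 4 were 47791532, beside 48315779 to 48711134 in the others. This is also the pup whose sex differs between the sources. Plxna4 was highest in ChR2-flfl replicate 1, with 321 CPM beside 243.6 to 276.6 CPM, and its genotype log2 difference stayed between -0.17 and -0.11 with any 1 pup left out. Of all pups, ChR2-flfl replicate 1 also had the highest sums for the co-receptor list (4453 CPM) and for plexin and semaphorin signalling (9737 CPM). Its sums of astrocyte (819.3), microglia (54.46) and meningeal markers (127.1 CPM) were the lowest. The part of this pup's composition in the genotype differences was not tested. Efnb3 was lowest in ChR2-flfl replicate 7, with 136.8 CPM beside 159.7 to 180 CPM. Sema3g was highest in Avil-ChR2 replicate 8, with 6.341 CPM beside 3.438 to 4.58 CPM.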

How the results depend on the processing

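With the genotypes compared under 14 other settings and with each of 16 pups left out, the count of guidance genes with an adjusted p under 0.05 was 0 in every one. The count at an unadjusted p under 0.05 lay between 5 and 8 in the other settings and was 1 in pups 26 to 33 alone (beside 3.17% of all genes tested), and 8 in pups 35 to 42 (beside 5.47%) with the same number of pups. The cause was not tested. With 1 pup left out it was 6 to 7. The median difference moved between -0.0264 (span slope as a covariate) and 0.0276 (pups 26 to 33), and between -0.0105 and 0.0104 with 1 pup left out. The 12 genes with the smallest p kept their direction in all 360 refits. They were chosen by p in these same pups and the refits reuse the pups, so that a kept direction was largely fixed beforehand. The count of guidance genes called between the runs was 0 with the sex of the labels and 0 with the span slope as a covariate, and 0 to 3 with 1 pup left out (these 3 alternatives were added after seeing the data, as was voom). The replicate number as a block changed no call (0 genes with an adjusted p under 0.05 and 6 at an unadjusted p), and the numbers do not pair the pups, with correlations from -0.07 to 0.125 between pups of the same number. By summed exons, 8 of the 10 highest genes per kb were the same. The planned edgeR test was not run. At 10 to 30 reads per pup, depth limits Epha1 most.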

Other observations

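Xist, which lies opposite Tsix, had no value in 7 of the 8 pups listed as female in the supplement and 571 CPM in the other one (Avil-ChR2 replicate 3), whereas Tsix had 242 to 932 CPM in these 8 pups and at most 0.66 CPM in the males. Xist therefore could not be used to check the sexes here.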
